A study of Mus musculus with 4 samples.

Results

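Nnt, Glo1, Dnahc8, Wdfy1 and Skint4 are genes for which laboratory mouse strains or substrains are known to differ, and their copy number was read in 4 mouse liver tumours by array comparative genomic hybridisation. The 5 genes were chosen by name, 5 of the 20749 gene names on the array, and the region of each is the stretch its named probes span, widened by 50 kb in both directions. Together the regions held 85 of 170305 probes, of which 50 carried one of the 5 names. Each tumour came from a separate male C57BL/6J mouse with liver-specific loss of Trp53, the p53 tumour suppressor gene, is labelled Trp53-/- and received no treatment. The reference was spleen DNA pooled from 3 littermates of the same sex, which is also labelled Trp53-/- and male, although the labelling protocol names liver as its source. Ages, the Cre driver and whether all 4 arrays carried the same pool are not given in the sources used here. Tumour DNA was in the red channel and reference DNA in the green channel of the same array, so a log2 ratio above 0 means more DNA in the tumour.

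Nnt encodes nicotinamide nucleotide transhydrogenase, an inner mitochondrial membrane enzyme that makes NADPH, and C57BL/6J carries a deletion of several of its exons that other C57BL/6 substrains lack. Glo1 encodes glyoxalase 1, which detoxifies methylglyoxal, and lies with Dnahc8, an axonemal dynein heavy chain gene now called Dnah8, in a stretch that is duplicated in tandem in several inbred strains but not in C57BL/6J. Wdfy1 encodes an endosomal protein with WD40 repeats and a FYVE domain, and Skint4 belongs to a rodent family of immunoglobulin-like genes expressed in skin and thymus, of which Skint1 is needed for a class of skin T cells. In a hybridisation of 2 DNAs the ratio shows a difference between tumour and reference, while a variant that both carry in the same number leaves the ratio at 0. The mouse reference genome, on which the probe positions stand, was itself read from C57BL/6J.

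The sequences of the highest and the lowest probe named for each gene, by the mean over the 4 tumours, are shown. These probes set the range of the named probe values, and their base composition can be read from the sequences. They are written 5′ to 3′ as in the files, with G and C in capitals, followed by the lowest probe of all 85, which has no gene name and lies between Nnt and Paip1.
Nnt, highest: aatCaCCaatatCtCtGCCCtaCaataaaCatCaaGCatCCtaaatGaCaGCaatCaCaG
Nnt, lowest: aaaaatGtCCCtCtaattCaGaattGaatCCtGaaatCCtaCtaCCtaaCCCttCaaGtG
Glo1, highest: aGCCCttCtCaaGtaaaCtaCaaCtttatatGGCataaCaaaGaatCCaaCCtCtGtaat
Glo1, lowest: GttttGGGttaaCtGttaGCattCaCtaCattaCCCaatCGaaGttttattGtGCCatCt
Dnahc8, highest: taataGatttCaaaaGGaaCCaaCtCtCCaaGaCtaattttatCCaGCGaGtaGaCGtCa
Dnahc8, lowest: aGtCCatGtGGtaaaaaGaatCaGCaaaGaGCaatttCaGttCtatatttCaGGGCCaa
Wdfy1, highest: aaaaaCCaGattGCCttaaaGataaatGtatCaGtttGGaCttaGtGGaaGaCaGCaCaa
Wdfy1, lowest: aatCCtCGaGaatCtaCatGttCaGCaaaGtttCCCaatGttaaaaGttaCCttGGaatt
Skint4, highest: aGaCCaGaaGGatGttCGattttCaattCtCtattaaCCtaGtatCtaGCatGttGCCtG
Skint4, lowest: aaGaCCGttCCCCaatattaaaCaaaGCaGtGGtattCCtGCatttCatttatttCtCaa
Nnt flank, lowest: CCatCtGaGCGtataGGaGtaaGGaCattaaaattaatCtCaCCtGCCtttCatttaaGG
Each of these 11 probes holds 21 to 23 G or C bases, in 59 or 60 bases, and the counts of the high and the low probes overlap. Over all 85 probes the GC content averaged 36.5%, against 36.8% over all autosomal probes.

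Signal was present at every one of the 85 probes in both channels. All 85 were well above background in red and in green on all 4 arrays, and none was saturated, so neither DNA was at background at any probe of the 5 genes. The lowest processed signal among them was 294 in the red and 331 in the green channel. The noise SD between neighbouring probes was 0.26, 0.32, 0.16 and 0.17 in tumours 1 to 4, and tumours 1 and 4 shared a slide. The array software's own measure of this spread was 0.31 for tumour 2, which it marked as out of range. It marked tumours 1, 3 and 4 as in range. The number of arrays limits the precision, and how far reference pools vary among themselves does not enter the tests against 0.

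**Figure D1:**
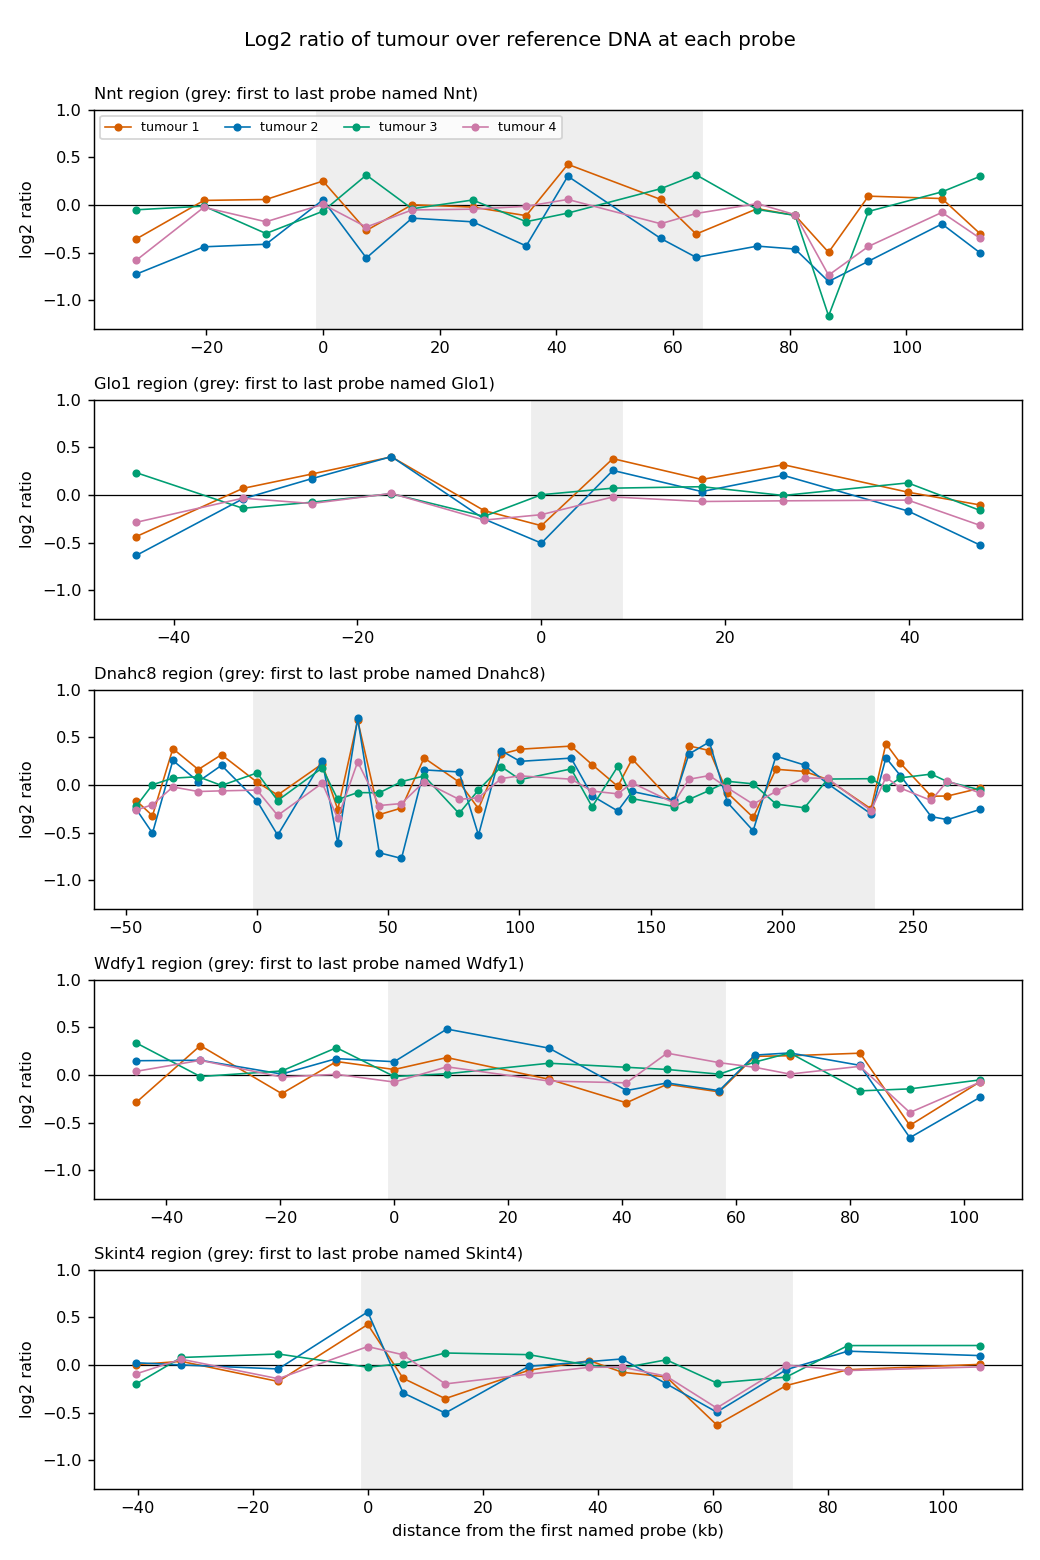
Log2 ratio of tumour over reference DNA at each probe (y axis) against the distance from the first probe named for the gene in kb (x axis), 1 panel per region and 1 line per tumour, with the stretch between the first and last named probe in grey. The lines of tumours 1 and 2 swing together around 0, and the lowest point of all is the unnamed probe beyond Nnt at -1.17 in tumour 3.

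Nnt had the lowest region mean of the 5 genes, but the probes named for the gene itself lay at the level of their chromosome. Its 8 named probes run from chr13:120129786-120193804 (mm9), and 17 probes made up the region. Averaged over the region, log2 ratios of -0.060 ± 0.056, -0.38 ± 0.067, -0.050 ± 0.082 and -0.18 ± 0.055 (SE over probes) were measured in tumours 1 to 4. All 4 tumours were below 0, with tumour 2 by far the lowest. The mean over tumours was -0.17 ± 0.15 (SD, n = 4), with a 95% interval of -0.31 to -0.019. The mean over all 4 tumours did not pass the test over all gene items (limma, adjusted p = 0.22, unadjusted p = 0.033), where 0.0433% of the gene items passed and 20.5% had an unadjusted p under 0.05. Without tumour 2 the mean was -0.096 (limma, adjusted p = 0.63).

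Chromosome 13 was itself lower in tumour 2. The other 7573 probes of the chromosome averaged -0.0023, -0.20, 0.015 and -0.015 in tumours 1 to 4. After subtraction of this level, the Nnt region was at -0.058, -0.18, -0.064 and -0.16 in the 4 tumours. The values of all 4 tumours were again below 0, those of tumours 2 and 4 about alike. The mean of -0.12 ± 0.065 (SD, n = 4) had an adjusted limma p of 0.11, among gene items of which 0.394% passed and 23.6% had an unadjusted p under 0.05, and a two-sided exact sign-flip permutation p of 0.125, the smallest that 4 tumours can give. Without tumour 3 it was -0.13 and passed (limma, adjusted p = 0.0021), in a fit in which 7882 gene items passed in place of 82.

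The lower level came from the probes beside Nnt. Averaged over the 8 probes named Nnt alone, tumours 1 to 4 had log2 ratios of 0.0030, -0.23, 0.060 and -0.071. These values lie on both sides of 0 and have the same order as the chromosome means. Relative to chromosome 13 the named probes had a mean of -0.0097 (limma, adjusted p = 0.88; exact sign-flip permutation p = 0.75). Nnt lies near the distal end of the chromosome, 89.4 kb from its last probe, and the 48 other probes within 1 Mb were at -0.093, -0.26, 0.018 and -0.11 in tumours 1 to 4. Against these surroundings, which were added once the data had been seen, the region was at 0.033, -0.12, -0.068 and -0.069, with a mean of -0.056 (limma, adjusted p = 0.20).

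**Figure D2:**
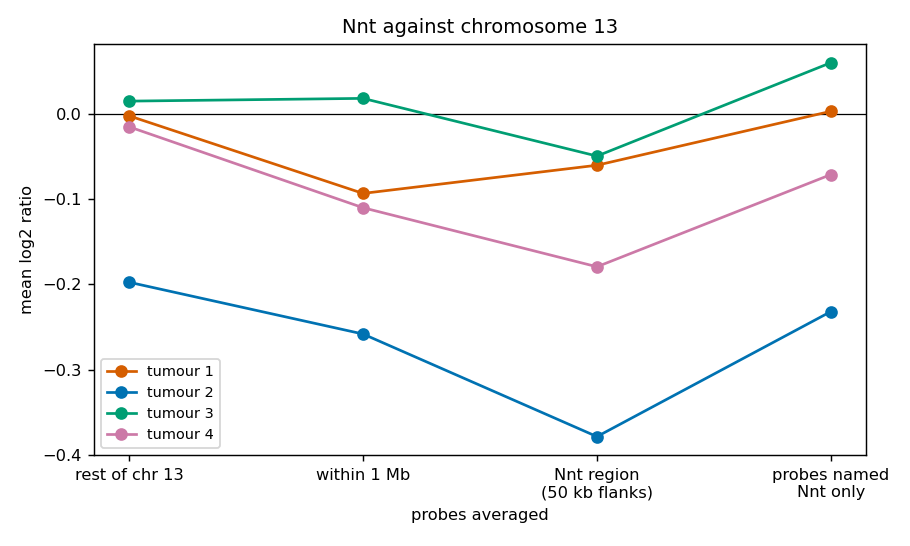
Mean log2 ratio (y axis) over the rest of chromosome 13, over the other probes within 1 Mb of Nnt, over the Nnt region with its flanks and over the probes named Nnt alone (x axis), 1 line per tumour. The region with flanks is the lowest set in tumours 2, 3 and 4, and the named probes return to within 0.060 of 0 in tumours 1 and 3.

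Probe by probe, Nnt showed no stretch that was lost or gained. Its highest named probe, at chr13:120171758-120171817, was at 0.43, 0.30, -0.086 and 0.057 in tumours 1 to 4. Its lowest, at chr13:120137221-120137280, was at -0.27, -0.56, 0.31 and -0.23. Tumour 3 had the opposite sign to the other tumours at both. The widest distance between neighbouring Nnt probes was 15.9 kb, from 120171817 to 120187679, against a median of 7.78 kb in the gene, and 24.7% of the autosomal distances were as long or longer. The 6 probes before this gap averaged -0.040 ± 0.087 (SD, n = 4 tumours) and the 2 after it -0.12 ± 0.28, a difference of -0.079 ± 0.23 with an exact sign-flip permutation p of 0.5. No gene annotation of mm9 was used here, so which probes lie in exons was not determined. Since the reference sequence comes from the substrain that carries the deletion, probes placed on it cannot lie in the missing exons. The gap is a distance within that sequence and not the deletion itself, so the comparison across it cannot show the deletion. The Nnt ratios therefore do not show whether either DNA carried the deletion.

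One probe of the Nnt region passed the probe test. It carries no gene name and lies at chr13:120216455-120216514, 22.7 kb beyond the last probe named Nnt and 6.77 kb before the first named Paip1, a gene of a poly(A)-binding protein partner in translation. In tumours 1 to 4 its log2 ratio was -0.50, -0.80, -1.17 and -0.74. It was low in all 4 tumours and lowest in tumour 3. The mean was -0.80 ± 0.28 (SD, n = 4; limma, adjusted p = 0.031), 1.74-fold less tumour than reference signal, with both channels well above background. This was 1 of the 85 probes (1.18%), where 0.727% of all 170269 probes tested passed, and 0.411% of the probes had a lower mean. The call was lost without tumour 2 (limma, adjusted p = 0.24) or without tumour 4 (limma, adjusted p = 0.17), at means of -0.80 and -0.82. In these fits 136 and 186 of all probes passed in place of 1238. The probes on either side, at 120210722 and 120223286, had means of -0.20 and -0.25, so the low value was that of 1 probe. Without this probe the Nnt region was at -0.031, -0.15, 0.0054 and -0.13 relative to chromosome 13, and tumour 3 was no longer below 0.

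Glo1 and Dnahc8 lay close to the reference level in every tumour. Glo1 has 2 named probes (chr17:30733865-30741697) and a region of 11, which shares 7 probes with the 35 of Dnahc8 (25 named, chr17:30773726-31007829). Glo1 was at 0.049 ± 0.085 (SE over probes), -0.097 ± 0.11, -0.0073 ± 0.041 and -0.13 ± 0.036 in tumours 1 to 4. Tumour 4 was lowest, but an SE over the probes of 1 array is no test of a tumour against 0. The mean of -0.045 ± 0.081 (SD, n = 4) had a 95% interval of -0.14 to 0.052 and did not pass (limma, adjusted p = 0.51). Dnahc8 was at 0.076 ± 0.045, -0.066 ± 0.062, -0.023 ± 0.023 and -0.065 ± 0.023. Its mean was -0.019 ± 0.067, with an interval of -0.11 to 0.069 (limma, adjusted p = 0.77). Relative to chromosome 17 the means were -0.041 for Glo1 and -0.015 for Dnahc8 (limma, adjusted p = 0.45 and 0.77). Against the other probes within 1 Mb they were farther below 0, at -0.078 and -0.062 (limma, adjusted p = 0.14 and 0.16).

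Both intervals were narrow beside the ratios that copies of a duplication would give. A mouse with 3 copies against a reference with 2 would have a log2 ratio of 0.58, and 1 of 3 pooled mice with 4 or with 3 copies would bring the ratio of a mouse with 2 to -0.42 or -0.22. None of these lay in the interval of Glo1 or of Dnahc8. Over the 29 probes from the first Glo1 to the last Dnahc8 probe, a span of 274 kb, the ratio was 0.084, -0.051, -0.024 and -0.064 in tumours 1 to 4, and no tumour came near any of them. No DNA of known copy difference was hybridised, so how far measured ratios fall short of these values was not measured. Tumour and reference thus did not differ detectably in copies of the stretch, and the ratios do not say how many copies each had.

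**Figure D3:**
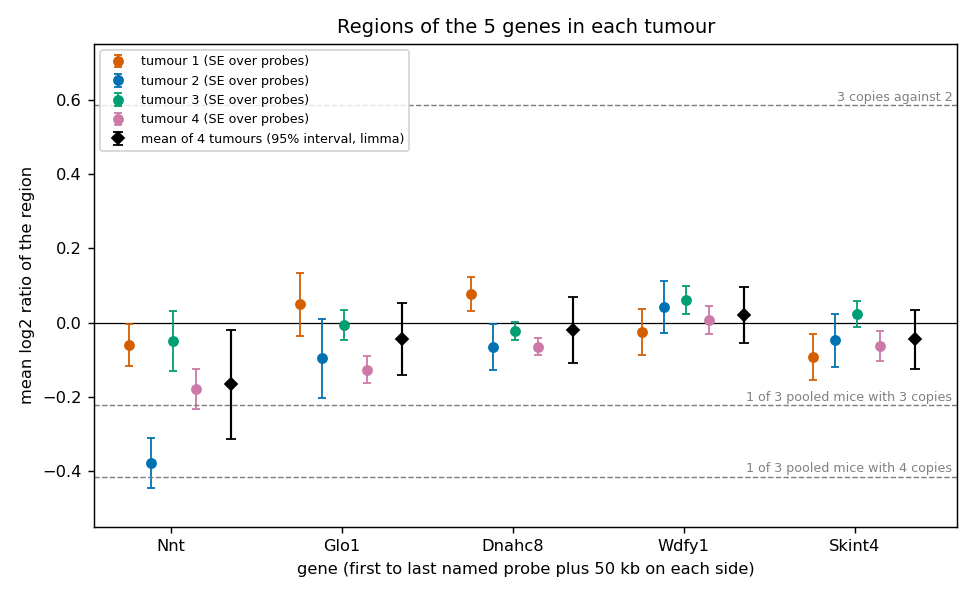
Mean log2 ratio of each gene's region (y axis) for the 5 genes (x axis), as 1 point per tumour with its SE over probes and a black diamond for the mean of the 4 tumours with its 95% interval from limma; dashed lines give the ratios of 3 copies against 2 and of a pool with 1 of 3 mice at 3 or 4 copies. The intervals of Glo1, Dnahc8, Wdfy1 and Skint4 hold 0 and none of the dashed lines, while that of Nnt, -0.31 to -0.019, holds the line at -0.22. The dashed lines are those of a duplication, whereas the known Nnt variant is a deletion. Relative to chromosome 13, which is not drawn, the Nnt interval was -0.19 to -0.044 and did not hold that line.

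The single probes of Dnahc8 ranged widely without forming a block. The highest, at chr17:30812078-30812137, was at 0.68, 0.70, -0.080 and 0.24 in tumours 1 to 4. The lowest, at chr17:30804503-30804561, was at -0.26, -0.61, -0.15 and -0.35. These probes are neighbours, 7.58 kb apart, so the largest step of the region, 0.73 between their means, turned back at the next probe. No more than 3 neighbouring probes were above 0 in all 4 tumours, and no 2 in a row were below. The means of the pair of Glo1 probes also lay on opposite sides of 0, as did their values in tumours 1 and 2 but not in tumours 3 and 4: chr17:30741638-30741697 was at 0.38, 0.26, 0.071 and -0.021, and chr17:30733865-30733924 at -0.32, -0.51, 0.0019 and -0.21. The mean of so few named probes rests on both.

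The neighbours of Glo1 and Dnahc8 were described in the same way, as a list of 3. How far the duplicated stretch reaches was not determined here, so these genes, and probes within 1 Mb, may lie inside it. None passed, and the median of their means was 0.023, against -0.0047 over all gene items. Btbd9, a BTB-domain protein gene on one side of Glo1, was at 0.023 ± 0.031 (SD, n = 4), and Glp1r, the glucagon-like peptide 1 receptor gene beyond Dnahc8, at -0.019 ± 0.066. Zfand3, a zinc finger gene farther out, was at 0.075 ± 0.061. Their values did not differ from 0 by the test (limma, adjusted p = 0.66, 0.78 and 0.28).

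Wdfy1 was the only one of the 5 genes with a mean above 0, and the smallest spread. Its 6 named probes lie at chr1:79699630-79756736 and its region holds 15. The region was at -0.026 ± 0.062 (SE over probes), 0.041 ± 0.070, 0.061 ± 0.037 and 0.0072 ± 0.037 in tumours 1 to 4, on both sides of 0. The mean was 0.021 ± 0.038 (SD, n = 4), with an interval of -0.054 to 0.096 (limma, adjusted p = 0.70), and 0.032 relative to chromosome 1 (adjusted p = 0.47). With flanks of 100 kb the mean was -0.015 and thus changed sign. Its highest probe, at chr1:79708869-79708928, was at 0.18, 0.48, 0.013 and 0.085, and its lowest, at chr1:79740397-79740456, at -0.29, -0.16, 0.080 and -0.083. The neighbouring genes were near 0 as well: Ap1s3, an adaptor complex subunit gene, had a mean of -0.036 ± 0.055 and Serpine2, a serine protease inhibitor gene, one of 0.0063 ± 0.029. Mrpl44, the third of that list, had no probe of its name.

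Skint4 was slightly below 0 in 3 of 4 tumours and did not pass either. Its 9 named probes lie at chr4:111758445-111831255 and its region holds 14. The values were -0.093 ± 0.062 (SE over probes), -0.048 ± 0.072, 0.023 ± 0.035 and -0.062 ± 0.041 in tumours 1 to 4. Their mean was -0.045 ± 0.049 (SD, n = 4), with an interval of -0.12 to 0.035 (limma, adjusted p = 0.43), and -0.030 relative to chromosome 4 (adjusted p = 0.56). The first and the next to last probe of the gene were its extremes. The highest, at chr4:111758445-111758504, was at 0.42, 0.56, -0.024 and 0.19, and the lowest, at chr4:111819115-111819174, at -0.63, -0.49, -0.19 and -0.45. The latter was below 0 in all 4 tumours but did not pass the probe test over all probes (limma, adjusted p = 0.065). It passed under normexp background correction (limma, adjusted p = 0.018) and without tumour 3 (limma, adjusted p = 0.013), settings under which 40752 and 38181 probes passed in place of 1238. The highest Skint4 probe, both Dnahc8 extremes and the lowest Glo1 probe passed under the same settings, the highest Nnt probe under normexp only and the lowest Nnt probe without tumour 3 only.

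Of the 10 other Skint genes 9 had probes, and none passed over all gene items. An unadjusted limma p under 0.05 was reached by 2 of the 9, near the share of 20.5% among all gene items. The median of their means was -0.034, but -0.015 without tumour 1, -0.013 without tumour 2 and -0.068 without tumour 3. Skint2 was lowest at -0.23 ± 0.21 (SD, n = 4), with -0.36, -0.40, 0.061 and -0.20 in tumours 1 to 4, and Skint11 followed at -0.15 ± 0.15 with -0.19, -0.30, 0.052 and -0.16. Tumour 3 was above 0 at both, and the other tumours were below (limma, adjusted p = 0.21 and 0.23). The others lay between -0.034 for Skint3 and 0.065 for Skint8.

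Further loci known to differ among C57BL/6 substrains gave no call. Of this list 4 of 5 names had probes, and the median of their means was -0.00016. By limma 0 of them passed and 0 had an unadjusted p under 0.05, where 0.0433% and 20.5% of all gene items did. Dock2, which is partly duplicated in one substrain, was at 0.064 ± 0.046 (SD, n = 4), and Ide, which has varied in copy number among C57BL/6J mice, at 0.016 ± 0.081. The Dock2 value is a mean over 48 probes of the whole gene and its flanks, and Dock2 was not described probe by probe. A difference in part of the gene would be diluted in this mean, so the value cannot show whether that part differed. Crb1 and Cyfip2, which differ between substrains by small sequence changes that do not alter copy number, were at -0.022 ± 0.079 and -0.016 ± 0.035. The 4 loci thus lay no farther from 0 than 0.064, and no test compared them with each other.

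Ordered by their region means, the 5 genes ran from Nnt (-0.17) over Glo1 (-0.045), Skint4 (-0.045) and Dnahc8 (-0.019) to Wdfy1 (0.021). Neighbours in this order had overlapping intervals. In absolute size 11.4% of all gene items had a larger mean than Nnt, 57.6% than Glo1, 57.8% than Skint4, 80.1% than Dnahc8 and 78.7% than Wdfy1, so 4 of the 5 lay in the less changed part of the array. The genes on other chromosomes with the closest values in the 4 tumours, by Euclidean distance, were Lrrc42 and ENSMUST00000081819 for Nnt (distance 0.058 and 0.084), ENSMUST00000109162 and Zfp64 for Glo1 (0.017 and 0.023) and Gm347 and Pilra for Dnahc8 (0.016 and 0.034). For Wdfy1 they were Olfr1299 and AK042807 (0.012 and 0.012), and for Skint4 Zpbp and ENSMUST00000101511 (0.018 and 0.019).

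The probe values of the 5 regions repeated between tumours. Over the 85 probes the Pearson correlation was 0.81 between tumours 1 and 2, 0.74 between tumours 2 and 4 and 0.68 between tumours 1 and 4. With tumour 3 it was 0.079, 0.17 and 0.35 for tumours 1, 2 and 4. Over all 161427 autosomal probes with a value in every tumour, the same pairs had 0.84, 0.69, 0.69, 0.094, 0.19 and 0.32. The pattern of the 5 genes was thus that of the whole array. Probes share their sequence, dye and array design across tumours, so these are descriptions. The correlation with probe GC content over the 85 probes was 0.32, 0.15, -0.18 and -0.019 in tumours 1 to 4. Over the 50 named probes it was 0.43, 0.27, -0.23 and 0.11. After GC correction the correlation between tumours 1 and 2 over the 85 probes was 0.81. Whether base composition contributed to the shared pattern was not tested. The array of tumour 3 had the dimmest green channel by the signal intensity measure in the file headers, at 165 against 348 to 658 on the others. That measure is a different quantity from the processed signals of single probes given above.

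**Figure D4:**
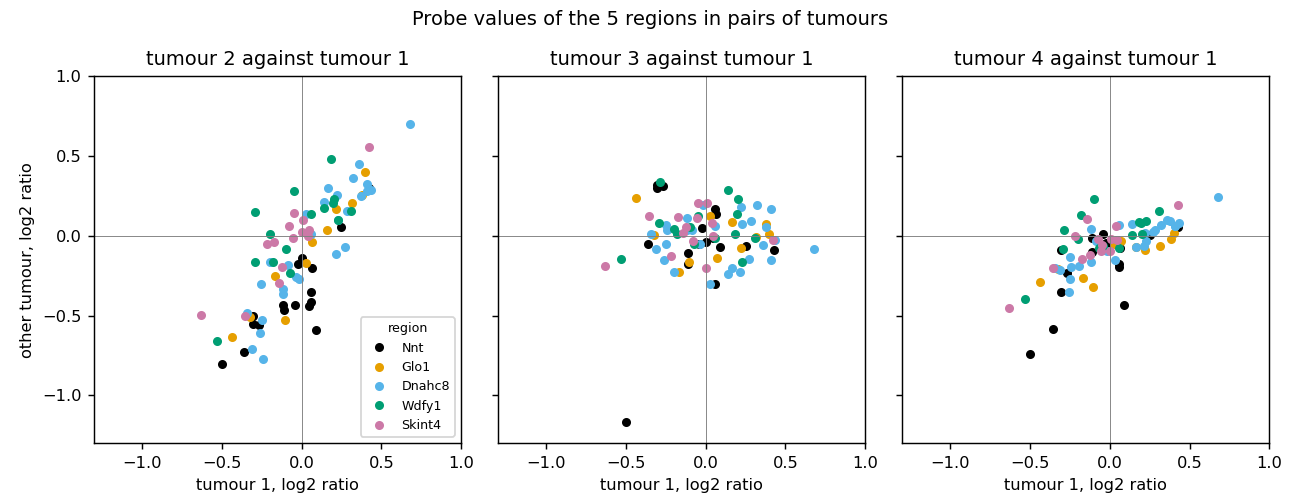
Log2 ratio of each of the 85 probes in tumours 2, 3 and 4 (y axes) against tumour 1 (x axes), coloured by region, with probes shared by Glo1 and Dnahc8 drawn under Glo1. The points follow a line for tumours 2 and 4 (correlations 0.81 and 0.68) and not for tumour 3 (0.079), where the probe beyond Nnt stands alone at -1.17.

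Of the 85 probes, 15 (17.6%) were below 0 in all 4 tumours, where 17.2% of all probes were, and 12 (14.1%) were above 0 in all 4, where 18.0% were. An unadjusted limma p under 0.05 was reached by 18 of them (21.2%), against 28.8% of all probes. Over the 85 probes together these shares were near or under those of the array. By region, an unadjusted limma p under 0.05 was reached by 13 of 35 probes at Dnahc8, a larger share than that of the array. It was reached by 3 of 11 at Glo1, 2 of 17 at Nnt, 2 of 14 at Skint4 and 1 of 15 at Wdfy1, all smaller shares. Glo1 and Dnahc8 share 7 probes. The 5 genes thus gave no difference in copy number between tumour and reference DNA that passed over all gene items, and the ratios alone do not show which strain or substrain either came from.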

How the data were processed

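Genomic DNA of 4 liver tumours was hybridised with reference DNA on Agilent mouse arrays, 1 array per tumour. Agilent Feature Extraction 10.7.3.1, per the file headers, subtracted a spatially detrended background, scaled the dyes linearly and wrote log10 of red over green for each spot. Processed and mean intensity per channel and the background median around each spot were taken from the same deposited files. The value table of the series, deposited on the log10 scale, matched these ratios within 0.5% at all 180880 features. Probe positions are on mm9.

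Ratios were turned to log2, spots marked as outliers were left out (control spots too), a probe's spots were averaged, and the autosomal median was subtracted per array. A gene item is the mean over all probes between the outermost named probes, widened by 50 kb both ways, formed for 20795 name and chromosome pairs. Gene items, gene items minus the other probes of their chromosome, and probes were each tested against 0 with limma 3.58.1 in R 4.3.3 (Benjamini-Hochberg under 0.05 over the whole table), after tests on simulated data. Tumours were numbered in accession order. Members, gene lists and tests were chosen with earlier results of these data known. Genes named are the 5 members, 4 lists of other strain or substrain loci (1 locus of which is not reported here) and the 2 closest gene items per member; probes given in full are the highest and lowest named probe of each gene and any past the probe test. Alternatives were the value table, centring on the mode, normexp (offset 50), probes well above background, GC correction, flanks of 0 and 100 kb, the median of probes and each tumour left out. Added after the data were seen were the surroundings of 1 Mb and Nnt without its low flanking probe. RefSeq's GRCm38.p6 table served for current symbols alone.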

Additional observations from a re-analysis of the deposited data

Results flagged for a closer look

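Of 39 sets of 4 tumour values, 1 had a sample far from the others by Dixon's criterion, which chance gives in about 1 of 20 sets. It was Glp1r, the glucagon-like peptide 1 receptor gene beside Dnahc8, at 0.080 in tumour 1 against -0.050, -0.063 and -0.042 in tumours 2 to 4, a gap of 0.852 of the range.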

How the results depend on the processing

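None of the 5 genes passed over all gene items under any of the 12 alternatives run for its log2 ratio. Only Wdfy1 changed sign, with flanks of 100 kb, to -0.015, and to -0.0035 relative to chromosome 1. Nnt ranged from -0.21 to -0.060, Glo1 from -0.077 to -0.010, Dnahc8 from -0.051 to -0.0013 and Skint4 from -0.075 to -0.020. Without tumour 1 Glo1 was at -0.077, Dnahc8 at -0.051, Skint4 at -0.029 and Wdfy1 at 0.036. Without tumour 2 they were at -0.028, -0.0039, -0.044 and 0.014, without tumour 3 at -0.058, -0.018, -0.068 and 0.0076, and without tumour 4 at -0.018, -0.0040, -0.039 and 0.026. Relative to chromosome 13 Nnt ranged from -0.16 to -0.0097 and passed only without tumour 3. With single tumours left out, Nnt was at -0.14 to -0.095 on this measure. The count of gene items past the threshold, 9, was 0 to 9 with single tumours left out. The count relative to the chromosome, 82, was 1494 under normexp and 143 after GC correction, and 8 to 7882 with single tumours left out. The count of probes, 1238, was 40752 under normexp and 136 to 38181 with single tumours left out. The cause was not tested. The median of the neighbours of Wdfy1, -0.015, was -0.051 under normexp, -0.041 with no flank and 0.012 with the median of probes, that of the Skint family, -0.034, was -0.00068 with the median of probes, and that of the substrain loci, -0.00016, was 0.038 with no flank. The slide as a random block could not be fitted, since 3 slides for 4 arrays gave a correlation for 0 gene items; tumours 1 and 4, on one slide, had a mean of -0.12 at Nnt, -0.039 at Glo1, 0.0055 at Dnahc8, -0.0093 at Wdfy1 and -0.078 at Skint4. No paired analysis was possible because there was 1 group of tumours. Saturation and dim signal limited none of the 85 probes.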
